A study of Harpegnathos saltator with 14 samples.

Results

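Males of the ponerine ant Harpegnathos saltator were set against late pupae of the same species, with 2 whole-body libraries of males and 2 of late pupae out of 14 libraries in the series. The members were chosen by their labels alone: male replicates 1 and 2, and late pupa replicates 1 and 2. The other 10 libraries hold 2 of adult workers, 2 of early pupae, 2 each of instar 1 and instar 4 larvae, and 2 of embryos. All groups are whole bodies of ants without a stated genetic change or treatment, kept in plaster nests and fed live crickets. The labels say neither how old the males were, nor whether they were adults, nor the sex or caste of the late pupae, and they do not say how many animals entered a library or whether replicates came from separate colonies. Sex and stage therefore cannot be told apart in this comparison. The p-values rest on library-to-library spread alone, some of which may be technical.

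Ants pass through complete metamorphosis: inside the pupa larval tissues are broken down, adult organs are built, and the adult cuticle is laid down and darkened before the animal emerges. Males of ants, bees and wasps arise from unfertilised eggs and are haploid, and an ant male is a winged, sperm-producing adult that takes no part in nest work. The sequencing was done for a study of reassembled ant genomes, and the labels name no question for this pair of groups. The identifiers in the table carry no gene names: 0 of 20755 matched any of 14329 genes in the reference table of assembly Hsal_v8.6. The stage and sex labels could therefore not be checked against marker genes, and genes are described by level, length and pattern over the groups. Identifiers are of 2 kinds, 20317 that begin with HSALG and 438 that begin with XLOC.

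Expression values are RPKM, read counts scaled by gene model length and library size. Reads counted in genes, recovered from the RPKM steps, numbered 5385888 and 4273973 in the male libraries, and 6667795 and 14217312 in the late pupa libraries, with a range of 4273973 to 14217312 over the 14 libraries. At the median gene length 1 read was worth 0.0588 and 0.0796 RPKM in males, and 0.0498 and 0.0226 RPKM in late pupae. Genes with at least 1 RPKM numbered 10158 and 9470 in males, and 10344 and 10849 in late pupae. A gene was tested when it had an RPKM of at least 1 in 2 or more of these 4 libraries, which held for 10892 genes, 10566 HSALG and 326 XLOC.

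The male libraries resembled each other (Pearson r = 0.922 across the 10892 genes, on log2(RPKM + 1)), as did the late pupa libraries (r = 0.904). Between the groups, late pupa replicate 1 had r of 0.614 and 0.649 with male replicates 1 and 2, and late pupa replicate 2 had 0.464 and 0.482. Late pupa replicate 2 was closer to early pupa replicate 1 (r = 0.923) than to its own replicate. Both male libraries lay nearer to the worker libraries, at r between 0.822 and 0.875. Genes are not independent replicates, so these values describe libraries and carry no test.

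Males and late pupae differed in 2703 of the genes tested. In the values as deposited, more genes were called higher in males than lower, an excess that depended on scaling. limma, fitted to log2(RPKM + 1) in all 14 libraries, called 1719 genes higher in males (15.8% of those tested) and 984 lower (9.03%) at a Benjamini-Hochberg adjusted p below 0.05. In whole bodies, more cells of a type and more RNA per cell cannot be told apart. Both male libraries lay above both late pupa libraries for all 1719 genes called higher, and below for all 984 called lower. The calls rest on the same values, so this is a description and no separate support for them. Over all genes tested the groups did not overlap for 4316 genes with males above (39.6%) and for 3394 with males below (31.2%). The size of the differences was similar in both directions, with a median log2 difference of 1.84 among genes called higher and -1.96 among genes called lower. At least 4-fold differences numbered 755 higher and 465 lower, and at least 16-fold differences 168 higher and 104 lower. The median over all genes tested was 0.10.

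Genes without a call are not shown to be equal. On the scale of RPKM + 1, the 95% interval lay inside 2-fold in either direction for 968 genes (8.89%) and inside 4-fold for 6673 (61.3%). The interval reached a median of 0.93 (log2) to each side. That scale understates the fold in RPKM of low genes, so these shares do not bound it. Of the genes tested, 4782 averaged below 5 RPKM over the 4 libraries. The split between directions depended on scaling: 63.6% of calls were higher in males as deposited, 55.1% after scaling libraries to a common median (2044 higher, 1666 lower) and 51.6% after quantile scaling (1929 higher, 1812 lower). Calls dropped to 567 higher and 152 lower without late pupa replicate 2, to 1121 and 733 without late pupa replicate 1, to 1005 and 427 without male replicate 1, and to 1111 and 266 without male replicate 2. They numbered 2263 and 1598 without both early pupa libraries, which lay far apart (their 10 most abundant genes took 14.01% and 58.7% of reads) and enter the shared estimate of spread. Without any 1 of the 4 libraries compared, 544 genes were called higher each time, or 31.6% of the 1719, and 113 were called lower each time, or 11.5% of the 984.

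**Figure D1:**
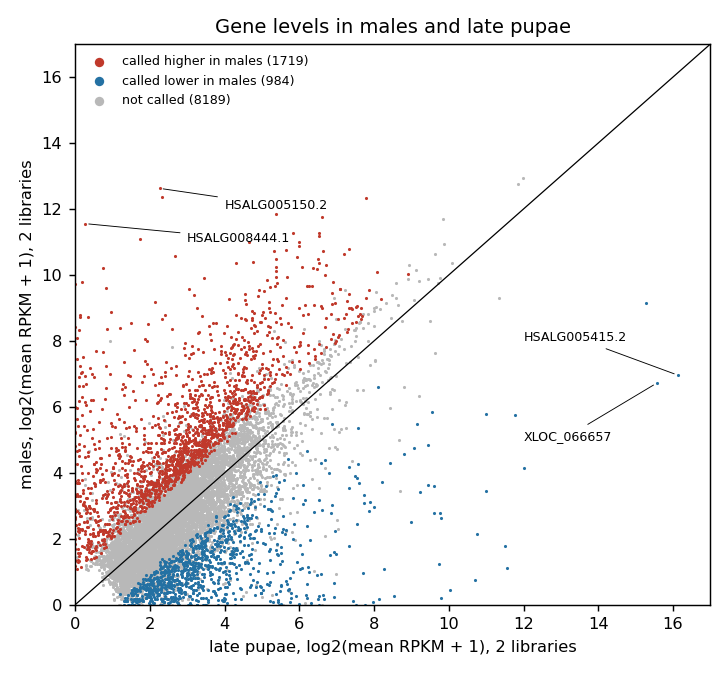
Mean level of each of 10892 tested genes in males (vertical axis) and late pupae (horizontal axis), each as log2 of the mean RPKM of 2 libraries plus 1. Red points are the 1719 genes called higher in males, blue points the 984 called lower and grey points the 8189 not called, the diagonal marks equal levels, and the 4 named genes lie far from it.

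Among the genes that rose in males, HSALG008444.1 had the largest difference. It had 4235 and 1777 RPKM in the male libraries, against 0 and 0.411 RPKM in the late pupa libraries, where it was read 0 and 8 times. The lower male library stood 4325 times above the higher late pupa library. The log2 difference was 11.17 ± 0.48 (SE; limma, adjusted p = 9.45e-08). In the other 10 libraries HSALG008444.1 never passed 1.46 RPKM, its value in early pupa replicate 1, and the worker libraries held 2 and 0 reads. Its gene model is 486 bases long.

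HSALG005150.2 was the most abundant gene among those that rose. It had 5295 and 7328 RPKM in males, against 5.47 and 2.11 RPKM in late pupae, a log2 difference of 10.44 ± 0.90 (SE; limma, adjusted p = 2.49e-05). The lower male library stood 968 times above the higher late pupa library. Unlike HSALG008444.1 it was also abundant in workers, at 2746 and 4037 RPKM. It stood at 82.1 and 366 RPKM in embryos, 41.9 and 38.3 RPKM in instar 1 larvae and 110 and 115 RPKM in instar 4 larvae. Early pupa replicate 1, at 1.77 RPKM, was low like late pupae, while early pupa replicate 2, at 25.2 RPKM, lay between late pupae and instar 1 larvae. The gene model is short, at 201 bases.

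The genes named among those that fell in males were very abundant in late pupae. XLOC_066657 had 0.176 and 208 RPKM in males, against 54838 and 41744 RPKM in late pupae. It alone took 16.6% and 13.0% of the gene reads of the late pupa libraries. The log2 difference was -11.57 ± 2.36 (SE; limma, adjusted p = 0.00587). The groups did not overlap, but the male libraries held 3 and 2623 reads and so differed greatly from each other. Early pupa replicate 1 had 7329 RPKM and early pupa replicate 2 31.8 RPKM, while the embryo, larval and worker libraries ran from 0 to 7.85 RPKM.

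HSALG005415.2, the most abundant gene among those that fell, followed much the same pattern. It had 8.47 and 239 RPKM in males, against 72499 and 69996 RPKM in late pupae, where it took 12.6% and 12.5% of gene reads. Its log2 difference was -10.54 ± 2.10 (SE; limma, adjusted p = 0.00528). Early pupa replicates 1 and 2 again lay far apart, at 13656 and 67.3 RPKM. Workers had 25.0 and 4.24 RPKM. Without male replicate 1 the calls of XLOC_066657 (limma, adjusted p = 0.0512) and of HSALG005415.2 (limma, adjusted p = 0.0518) were lost, with log2 differences of -7.84 and -8.21. Over 29 alternatives the adjusted p from limma ran from 0.000583 to 0.0512 for XLOC_066657 and from 0.000246 to 0.0518 for HSALG005415.2.

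**Figure D2:**
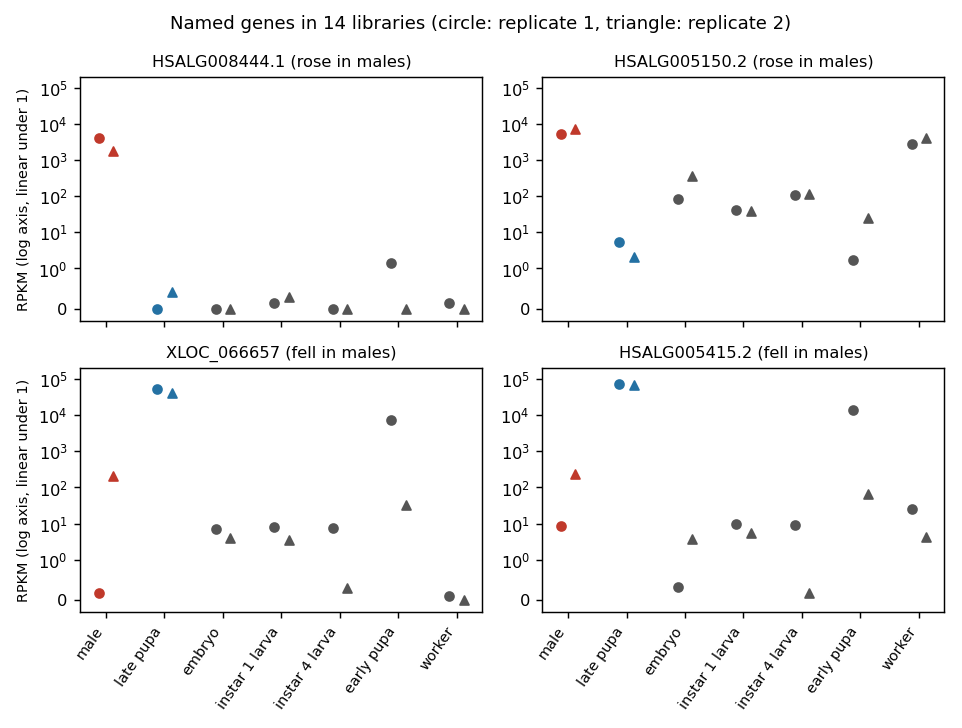
RPKM of the 4 named genes in each of 14 libraries, by group, on a log axis that is linear below 1. Circles are replicate 1 and triangles replicate 2, males are red and late pupae blue. HSALG008444.1 is at 1777 and above in males and at 1.46 or below elsewhere, HSALG005150.2 is highest in males and workers (2746 and above), and XLOC_066657 and HSALG005415.2 are highest in late pupae (41744 and above), followed by early pupa replicate 1.

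With all genes counted, reads were concentrated in fewer genes in late pupae than in males. Of the late pupa share, 2 of the named genes held a large part. To reach 50% of gene reads took the 315 and 145 most abundant genes in the male libraries, against the 30 and 88 most abundant in the late pupa libraries. Each library's own 10 most abundant genes took 10.5% and 17.8% of reads in males, against 43.9% and 32.7% in late pupae. Of the late pupa reads, XLOC_066657 alone took 16.6% and 13.0%, and HSALG005415.2 12.6% and 12.5%. Each library's own 100 most abundant genes took 33.4% and 45.3% in males, against 58.2% and 51.1% in late pupae. These 2 genes are counted in each late pupa share above, and the contrast without them was not examined. The values therefore do not show that reads of the remaining genes were more concentrated in late pupae than in males. Of the 10 genes with the highest mean in males and the 10 with the highest mean in late pupae, 2 were shared, and of the 100 highest in each, 28. Among the 100 highest in males 76 were called higher there and 1 lower. Among the 100 highest in late pupae 41 were called lower in males and 10 higher. Of all genes tested, 15.8% were called higher and 9.03% lower. Choosing genes by a high mean in a group favours calls in that direction, so these counts are description only. Reads taken by a few genes lower the RPKM of all others in that library, and the part of this in the result was not tested.

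Genes called higher in males took 45.9% and 52.1% of gene reads in the male libraries, against 7.45% and 5.49% in the late pupa libraries. Genes called lower took 1.62% and 1.57% in males, against 50.2% and 51.4% in late pupae. Each set thus took about 50% of the reads of the group in which it stood higher, a description only, since the calls rest on the same values. The genes called higher took 35.3% and 36.3% in workers, 24.9% and 26.8% in instar 1 larvae, 16.1% and 18.6% in embryos, 9.36% and 9.83% in instar 4 larvae, and 7.96% and 7.19% in early pupae. The genes called lower took 2.08% and 2.60% in workers, 3.81% and 3.10% in instar 1 larvae, and 10.6% and 5.82% in embryos. They took 48.1% and 48.5% in instar 4 larvae, and 33.3% and 45.2% in early pupae. Such shares weigh abundant genes most. In instar 4 larvae the genes called lower had a median of 2.41 RPKM, below the 3.40 RPKM of all genes tested. The 10 most abundant genes of each instar 4 library took 60.4% and 61.4% of its reads. Those of early pupa replicate 2 took 58.7%. In that library genes called lower had a median of 4.35 RPKM, near the 4.17 RPKM of all genes tested. In early pupa replicate 1 these medians were 10.2 and 7.13 RPKM.

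**Figure D3:**
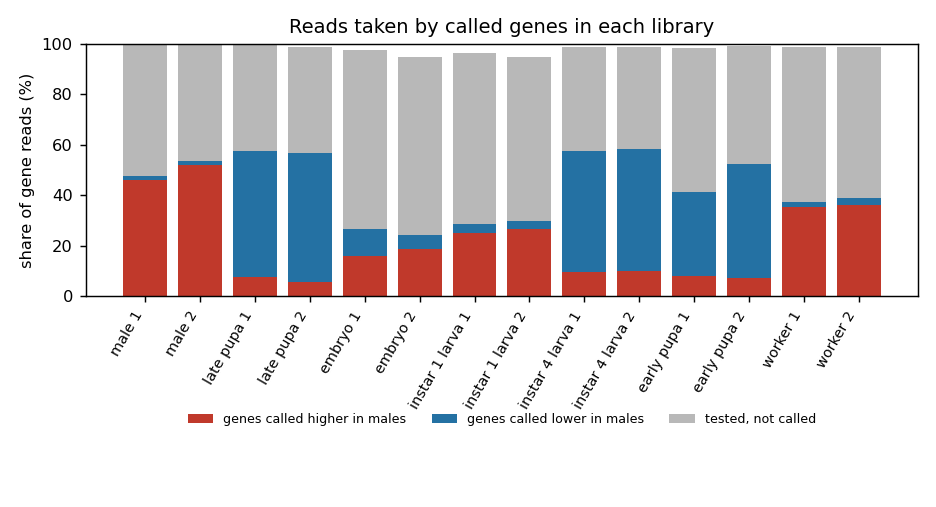
Share of gene reads, in percent, taken in each of 14 libraries by genes called higher in males (red), genes called lower in males (blue) and tested genes not called (grey). Red makes up 45.9% and 52.1% of the male libraries and blue 50.2% and 51.4% of the late pupa libraries, and the rest of each bar up to 100% is genes not tested.

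The most abundant genes of each direction were examined as sets. Each set was chosen by its calls and by a high mean in the higher group, which favours that group in the values below. Of the genes called higher, 35 averaged at least 1000 RPKM in males, all of them HSALG models, with medians of 1146 and 2218 RPKM in the male libraries, against 78.9 and 49.0 RPKM in the late pupa libraries. Together they took 10.1% and 18.4% of male reads, against 0.790% and 0.477% of late pupa reads. Male replicate 2 thus gave them a larger share than male replicate 1. In workers their medians were 299 and 273 RPKM, below the male values and above the pupal ones. Of the genes called lower, 12 averaged at least 1000 RPKM in late pupae, 2 of them XLOC. Their medians were 1.78 and 25.0 RPKM in males, against 1154 and 3825 RPKM in late pupae, and they took 0.0152% and 0.224% of male reads, against 38.1% and 32.9% of late pupa reads. They were also abundant in early pupa replicate 1, with a median of 3420 RPKM, but not in early pupa replicate 2, at 15.8 RPKM.

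Of the genes called higher in males, 235 (13.7%) were below 1 RPKM in both late pupa libraries and 20 held 0 reads there, while 1377 (80.1%) reached 1 RPKM in all 4 libraries. Of the genes called lower, 405 (41.2%) were below 1 RPKM in both male libraries and 31 held 0 reads there, while 388 (39.4%) reached 1 RPKM in all 4. Genes that passed the filter through 1 group alone had to differ: 353 were at 1 RPKM in both male libraries and neither late pupa library, and 821 in both late pupa libraries and neither male library. Sets with 0 reads in the lower group and a mean of at least 10 RPKM in the higher group had 8 genes in each direction. The 8 higher in males, 1 of them XLOC, ran from 12.5 to 839 RPKM in male means, against 0 reads in both late pupa libraries and in early pupa replicate 1. Those 8 ran up to 168 and 160 RPKM in workers, and 5 and 4 of them were below 1 RPKM in worker replicates 1 and 2. The 8 lower in males, 1 of them XLOC, ran from 10.03 to 215 RPKM in late pupa means, against 0 reads in both male libraries. In workers they did not pass 1.39 RPKM, while 1 or more of them reached 9465 and 5308 RPKM in instar 4 larvae and 16791 RPKM in early pupa replicate 2. A count of 0 reads allows a level of up to 3 reads, a limit that covers counting error only.

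Abundance and direction went together. Of 401 genes with a mean of at least 100 RPKM over the 4 libraries, 59.6% were called higher in males and 10.7% lower, with a median log2 difference of 1.95. Of 1415 genes between 20 and 100 RPKM, 39.5% were called higher and 7.21% lower. Of 4294 genes between 5 and 20 RPKM, 15.6% were called higher and 8.38% lower. Below 5 RPKM the order turned, with 5.27% of 4782 genes called higher and 10.02% lower. In the genes of at least 100 RPKM the median difference lay between 1.41 and 2.28 for each pairing of 1 male with 1 late pupa library. With only the 4 libraries fitted, 47.1% of these genes were called higher and 11.5% lower, and without late pupa replicate 2 32.7% and 4.74%. Below 5 RPKM that last fit called 1.09% higher and 0.669% lower, so the turn of the order among low genes was lost without late pupa replicate 2.

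Gene models called lower in males had a longer median length than those called higher. The lengths are those behind the RPKM, and 97.7% of tested HSALG lengths were multiples of 3, so most are coding lengths. The median was 837 bases in the 1657 HSALG models called higher, 1350 bases in the 960 called lower and 1101 bases in all 10566 tested. In the shortest of 4 length classes, of 78 to 594 bases, 20.2% were called higher and 8.35% lower. In the longest class, of 1926 to 56400 bases, 7.27% were called higher and 13.4% lower, and lower calls were the majority there. The median log2 difference of the longest class was -0.32, against 0.25 in the shortest. It was lower in the longest than in the shortest class for each pairing of libraries, from -0.68 to 0.05 in the longest and from 0.05 to 0.44 in the shortest. Median levels over the 4 libraries differed little between these classes, at 5.67 and 5.17 RPKM.

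Replicates of a group differed by length too, though less. Male replicate 1 minus male replicate 2 had a median of 0.39 in the longest class and 0.25 in the shortest. Late pupa replicate 1 minus replicate 2 had -0.27 and -0.07. Outside the comparison, workers minus early pupae had a median of -0.25 in the longest class and 0.02 in the shortest. The part of RNA quality or library making in the length pattern was not tested. With only the 4 libraries fitted, 7.46% of the longest models were called higher and 17.7% lower. Without late pupa replicate 2, fewer of the longest models were called lower (1.67%) than higher.

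**Figure D4:**
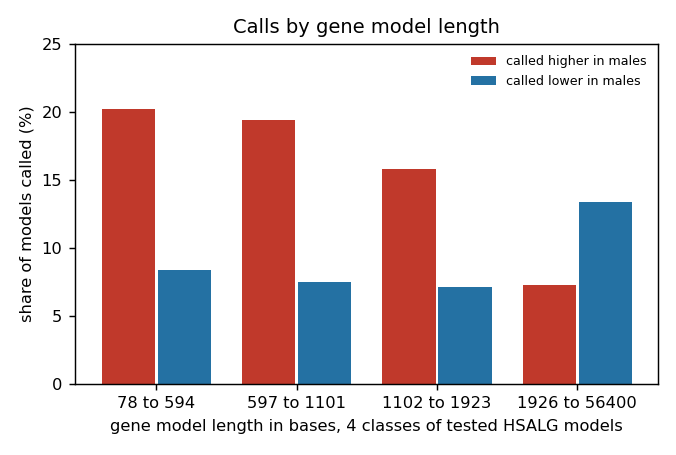
Share of tested HSALG gene models called higher (red) or lower (blue) in males, in percent, by class of gene model length in bases (4 classes of near-equal size). Red falls from 20.2% in the shortest class to 7.27% in the longest, where blue reaches 13.4%.

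XLOC loci are a small share of the genes tested. Of 326 XLOC loci tested, 62 (19.0%) were called higher in males and 24 (7.36%) lower, beside 1657 (15.7%) and 960 (9.09%) of 10566 HSALG models. Their medians over the 4 libraries were 4.68 RPKM for XLOC loci and 6.002 RPKM for HSALG models.

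The remaining 5 groups were not part of the comparison, and show where else the called genes were expressed. Genes called higher in males had a median of group means of 28.9 RPKM in males, against 6.10 RPKM in late pupae. The same genes stood at 16.3 RPKM in workers, 15.8 in embryos, 15.6 in instar 1 larvae, 7.16 in early pupae and 6.14 in instar 4 larvae. The median of all genes tested was 5.40 RPKM in males, 5.32 in late pupae, 5.09 in workers and 10.1 in embryos. It was 5.28 RPKM in instar 1 larvae, 3.40 in instar 4 larvae and 6.09 in early pupae. Genes called lower had a median of 1.04 RPKM in males, against 8.84 RPKM in late pupae. They stood at 7.94 RPKM in early pupae, 5.77 in embryos, 2.41 in instar 4 larvae, 1.82 in workers and 1.65 in instar 1 larvae. Among the 5 groups outside the comparison, the highest mean of genes called lower lay in early pupae for 54.3% and in embryos for 35.5%, beside 15.9% and 52.0% of all genes tested. For genes called higher it lay in workers for 34.2%, in embryos for 33.4% and in instar 1 larvae for 27.5%, beside 14.2%, 52.0% and 14.3% of all genes tested.

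**Figure D5:**
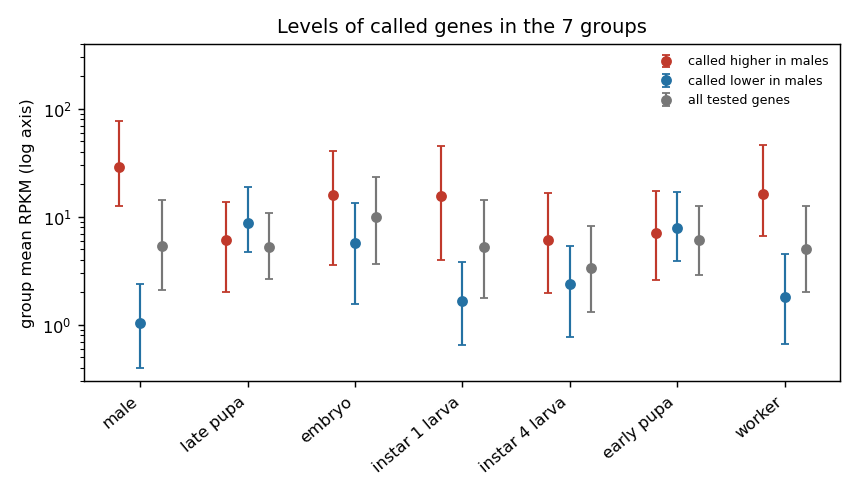
Group mean RPKM (log axis) of genes called higher in males (red), genes called lower in males (blue) and all genes tested (grey) in the 7 groups. Points are medians over genes and bars run from the first to the third quartile, which is a spread over genes and not an error. Red is highest in males at 28.9 RPKM, and blue is highest in late pupae at 8.84 RPKM and early pupae at 7.94 RPKM.

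Workers and early pupae share no library with males or late pupae, and the called genes were set out in that second contrast. Of the 1719 genes called higher in males, 1276 (74.2%) lay above early pupae in workers with no overlap, beside 24.9% of all genes tested. Of these 1719, 33 (1.92%) lay below with no overlap, beside 26.9% of all genes tested. Of the 984 genes called lower in males, 16 (1.63%) lay above and 718 (73.0%) below. The median log2 difference, workers minus early pupae, was 0.89 in genes called higher, -1.18 in genes called lower and -0.06 in all genes tested. The early pupa libraries lie far apart, and with early pupa replicates 1 and 2 taken singly the medians were 0.74 and 1.05 in genes called higher, and -1.61 and -0.64 in genes called lower. These libraries were part of the fit behind the calls, through the spread of each gene and the trend of spread with mean level.

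Workers were then placed beside both groups. Genes called higher had a median log2 difference of 1.84 for males minus late pupae, 1.04 for workers minus late pupae and 0.71 for males minus workers. Genes called lower had -1.96, -1.36 and -0.48. These 3 differences share libraries and are given as values only. Of the genes called higher, 74 (4.30%) were below 1 RPKM in both worker libraries, beside 9.14% of all genes tested. A call favours a highest mean in the higher group and excludes one in the other group compared, so the next shares are description only. The highest group mean of genes called higher lay in males for 855 (49.7%), in embryos for 336 (19.5%), in instar 1 larvae for 288 (16.8%) and in workers for 200 (11.6%). Of all genes tested, 13.1% had theirs in males, 46.7% in embryos, 11.6% in instar 1 larvae and 7.198% in workers, so embryos held a smaller share of the genes called higher than of all genes tested. Of the genes called lower, 435 (44.2%) had their highest mean in late pupae, 280 (28.5%) in embryos and 221 (22.5%) in early pupae, beside 9.75%, 46.7% and 8.48% of all genes tested.

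Genes that differed at least 16-fold were described by their levels over the groups. The 168 genes at least 16-fold higher in males had a median of 184 RPKM in males, against 1.93 RPKM in late pupae. Of them 126 peaked in males, which the choice of these genes favours, beside 13.1% of all genes tested. Their median was 70.5 RPKM in workers and between 2.44 and 8.26 RPKM in the remaining groups. In both worker libraries 20 of them were below 1 RPKM, beside 9.14% of all genes tested. The 104 genes at least 16-fold lower in males had a median of 0.951 RPKM in males, against 113 RPKM in late pupae. Their median was 58.2 RPKM in early pupae and 0.289 RPKM in workers. In both worker libraries 68 of these 104 were below 1 RPKM, beside the same 9.14% of all genes tested.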

How the data were processed

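Per the labels' protocols, polyA RNA was taken from full bodies with TRIzol, cleared of DNA, fragmented and reverse transcribed from random hexamers into strand-specific dUTP libraries. The deposited table holds RPKM, a unit the authors computed, for 20755 identifiers. Per the submitters' processing notes the tools include STAR 2.5.0b and DESeq2, without a stated use. Which program counted reads, which genome build was used and how gene length was set is not given in the sources used. Values in this unit depend on the gene length used and on how reads spread over the genes of a library.

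Whole reads were recovered by searching 1 whole-number length per gene, within a relative tolerance of 1e-05, which succeeded for 18543 of 18543 genes above 0. Genes with at least 1 RPKM in 2 or more of the 4 libraries were tested on log2(RPKM + 1), a scale that understates the change of low genes. limma 3.58.1 in R 4.3.3 fitted all 14 libraries, 7 groups of 2, with an intensity trend and no block, two-sided, with Benjamini-Hochberg adjustment over all genes tested. The fit assumes 1 spread per gene for all groups. Alternatives changed the pseudocount, filter, scaling, libraries fitted, weights and replicate block. Python 3.11.15, numpy 2.4.6, pandas 2.3.3 and matplotlib 3.10.9 did the rest. Steps were tested on simulated data.

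In each direction the gene with the largest difference and the most abundant one were named, among called genes with no overlap, at least 2-fold difference and a mean of at least 10 RPKM in the higher group. The comparison, rules and alternatives were chosen with earlier results of these data known. No gene list could be tested, since 0 identifiers matched a name. A pair of fits of the 4 libraries alone, with median scaling and with a crossed block, were added once the data had been seen.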

Additional observations from a re-analysis of the deposited data

How the results depend on the processing

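Over 29 alternatives, 42 of 58 counts of called genes stayed within 1.5 times of 1719 higher and 984 lower, and 16 moved. Genes called lower numbered 546 at a mean RPKM of at least 5, which tests fewer genes, 1666 with median scaling, 1812 with quantile scaling, 1598 without both early pupa libraries and 1501 with library weights. With only the 4 libraries scaled to a common median there were 1790, and 49.6% of calls were then higher, a minority; both this fit and the crossed block below were chosen after seeing the data. Leaving out each of the 14 libraries gave 567 to 2271 higher and 152 to 1598 lower, with the lowest counts without late pupa replicate 2 and the highest without an early pupa library. Where a group kept a single library, that library was taken to have the spread of the other groups. Some alternatives held fewer libraries or genes, and the causes of the moves were not tested. The median of all genes ran from -0.08 without male replicate 1 to 0.27 without male replicate 2. Calls of named genes were kept in all alternatives but 1 each for XLOC_066657 and HSALG005415.2.

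The labels do not say what replicate numbers stand for, and differences between replicates correlated at -0.15 between males and late pupae. The replicate block gave 1605 higher and 937 lower. A crossed replicate block over only the 4 libraries gave 1899 and 1852, beside 1688 and 1387 without a block.

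With 2 libraries per group, the 95% interval reached a median of 0.93 (log2) to each side. Of the calls, 1676 of 1719 higher and 980 of 984 lower were at least 2-fold, so smaller differences were seldom called.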

Other observations

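Transcripts that were abundant in late pupae were present at very different levels in the male libraries. The 10 genes with the highest mean in late pupae had a median of 2.83 RPKM in male replicate 1 and 224 RPKM in male replicate 2, against 5209 and 4391 RPKM in late pupa replicates 1 and 2. Male replicate 2 was the higher male library for 9 of these 10 genes, and its ratio to male replicate 1 ran from 0.735 to 1183 with a median of 8.80. Male replicate 1 was the higher for 65.3% of the 984 genes called lower in males, near its share of 71.5% over all genes tested. What lies behind this was not tested.

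The late pupa libraries differed from each other by the direction of the call. Late pupa replicate 1 was the higher of the pair for 72.1% of genes called higher in males and for 14.1% of genes called lower, beside 38.2% of all genes tested. It was thus nearer to males than replicate 2 in both directions. The median log2 difference of genes called lower was -1.51 and -1.78 for male replicates 1 and 2 minus late pupa replicate 1, and -2.16 and -2.40 for the same males minus late pupa replicate 2.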
